A study of Mus musculus with 6 samples.

Results

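The genes described here act at the step where RNA polymerase II (Pol II) leaves its paused state near the start of a gene. They are 9 genes chosen by symbol from the deposited count tables, namely Hexim1, Hexim2, Larp7, Mepce, Cdk9, Ccnt1, Ccnt2, Nelfa and Nelfe, of 39017 genes in all. They were chosen with results of these libraries known, so their values are given as a description, with no p-value. Which of them the fit over all genes called is stated beside the share of all genes, and nothing is read from it.

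Shortly after it starts a transcript, Pol II is held in place by the negative elongation factor NELF together with DSIF. It is released when P-TEFb, the kinase Cdk9 bound to cyclin T1 or cyclin T2, phosphorylates NELF, DSIF and the C-terminal domain (CTD) of the largest Pol II subunit. Much of the P-TEFb in a cell is kept inactive in a particle built on the 7SK RNA, in which Hexim1 or Hexim2 inhibits the kinase, Larp7 binds and stabilizes 7SK, and Mepce caps its 5′ end. In cells whose transcription is disturbed, P-TEFb is known to leave this particle.

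The polyA RNA-Seq data hold 3 groups of 2 libraries each from mouse embryonic stem cells (mESCs) of the V6.5 background. The untreated and the auxin 6 h groups are Pol II degron cells, a clonal line in which both alleles of Polr2a, the gene of the largest Pol II subunit RPB1, end in an mAID-EGFP tag and OsTIR1 is expressed from the Rosa26 locus; the clones were picked for the strongest degradation. OsTIR1 is a plant protein that sends mAID-tagged proteins to the proteasome once auxin is present. All degron cells, the untreated ones too, had received 1 μg/ml doxycycline for 12 h, and the treated cells then received 500 μM auxin for 6 h. The wild-type group is V6.5 without the tag, and whether it received doxycycline is not given in the sources used here. Cells were grown on irradiated feeder fibroblasts in serum and LIF and were harvested after 2 passages. Auxin acts on the RPB1 protein, so mRNA counts do not measure its loss.

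Between 14094022 and 15358714 reads per library were counted on genes. Polr2a itself had counts of 6623 and 6568 in untreated, 10396 and 10663 in auxin-treated and 6866 and 7129 in wild-type libraries. None of 8 embryonic stem cell markers was at 0 in any group, and their summed level was 3592 and 4195 counts per 1000000 (CPM) in untreated, 3004 and 3220 in auxin-treated and 6027 and 5966 in wild-type libraries. Single markers, named here after their values were seen, did not all move with these sums. Dppa5a had counts of 9814 and 12533 in untreated and 29279 and 29291 in wild-type libraries. Zfp42 had 5614 and 5627 in untreated and 4960 and 4913 in wild-type libraries. Nanog, Sox2, Klf4 and Tfcp2l1 had, like Dppa5a, more counts in wild-type than in untreated libraries, while Pou5f1 and Esrrb overlapped. After auxin Nanog, Sox2, Esrrb and Zfp42 were lower in counts. The counts of Pou5f1, Klf4, Tfcp2l1 and Dppa5a overlapped those of untreated libraries. The summed level of 8 fibroblast markers was 171 and 168 CPM in untreated, 188 and 216 in auxin-treated and 135 and 140 in wild-type libraries, so the groups stood apart. Lum was at 0 in both degron groups, while Col1a1 had counts of 941 and 938 in untreated, 1166 and 1380 in auxin-treated and 962 and 915 in wild-type libraries. Against untreated counts, Col1a2, Thy1 and Pdgfrb were lower in wild-type, Postn was higher, and Col1a1 and Col3a1 overlapped. The summed level of 8 retina markers, listed because the wild-type labels mention retinas, was between 1.21 and 3.14 CPM, with Crx and Rcvrn at 0 in every library. Mitochondrial mRNAs took between 0.341% and 0.441% of the counts in the degron libraries and 1.53% and 1.50% in the wild-type ones. The part of the marker levels and of this share in the differences given below was not tested. Wild-type counts stand in a table of their own, so genotype, treatment and preparation cannot be told apart in that comparison, and while the study describes its sequencing replicates as biological, whether the 2 libraries of a group came from separate cultures is not given. Bulk libraries also cannot tell fewer cells of a type from less RNA per cell.

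Hexim1 is a gene with a single exon. It lies on the plus strand of chromosome 11 of mm10, chr11:103116231-103119725 in the GENCODE vM21 annotation, with no gene overlapping it, and Hexim2 begins 12703 bases after its end on the same strand. The DNA just before 3 of the genes is shown so that the start region of Hexim1, which differed most between the groups, can be read beside those of a 7SK partner and a cyclin. The stretches are RefSeq GRCm38.p6 promoter windows, ended 1 base before the GENCODE start of the gene. Capitals mark TATAA (the core of a TATA box), CCAAT (known as a site for NF-Y), GGGCGG (a GC box) and TGACGTCA (a cAMP response element) on either strand, which were chosen after the sequences had been seen. In the Ccnt2 stretch a CCAAT match shares 1 base with a match of the GC box.
Hexim1, chr11:103116075-103116230, plus strand: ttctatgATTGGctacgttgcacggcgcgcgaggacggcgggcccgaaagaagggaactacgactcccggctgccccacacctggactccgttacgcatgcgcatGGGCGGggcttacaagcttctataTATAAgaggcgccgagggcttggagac
Larp7, chr3:127553350-127553599, minus strand: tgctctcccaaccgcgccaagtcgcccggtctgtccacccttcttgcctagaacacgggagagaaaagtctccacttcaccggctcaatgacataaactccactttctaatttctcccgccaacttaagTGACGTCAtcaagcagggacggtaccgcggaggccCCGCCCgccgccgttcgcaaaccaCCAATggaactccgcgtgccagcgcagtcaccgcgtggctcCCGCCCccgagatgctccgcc
Ccnt2, chr1:127773914-127774163, plus strand: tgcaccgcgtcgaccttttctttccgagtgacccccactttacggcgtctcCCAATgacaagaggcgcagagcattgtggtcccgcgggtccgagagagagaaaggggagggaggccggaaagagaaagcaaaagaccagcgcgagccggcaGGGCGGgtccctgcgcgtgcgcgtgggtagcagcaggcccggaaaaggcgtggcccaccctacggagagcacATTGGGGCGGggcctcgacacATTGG

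The Hexim1 stretch holds TATAA, beginning 27 bases before the GENCODE start, which itself lies 94 bases before the RefSeq start. RefSeq windows of 300 bases were found for 6 of the 9 genes, all but Hexim2, Mepce and Nelfe. Over these, TATAA occurred only in the Hexim1 window, compared with 24.9% of 32851 windows of all genes. CCAAT occurred in Hexim1, Larp7, Cdk9 and Ccnt2 and in 37.4% of all windows. GGGCGG occurred in all 6 and in 35.7% of all windows, and TGACGTCA in Larp7 and in 1.79%. The Hexim1 window was 61.0% G and C, the Cdk9 window 78.3%, and the median of all windows was 52.7%. These are matches of letters and do not show binding.

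In the same annotation Hexim2 lies at chr11:103132429-103139876 on the plus strand. Of the other partners of 7SK, Larp7 lies at chr3:127536714-127553349 and Mepce at chr5:137781906-137787655, both on the minus strand. Of the P-TEFb genes, Cdk9 lies at chr2:32705784-32713076 and Ccnt1 at chr15:98538689-98570923 on the minus strand, and Ccnt2 at chr1:127774164-127808061 on the plus strand. Exons of Cdk9 hold the microRNA genes Mir2861 and Mir3960 on the same strand. Nelfa lies at chr5:33897916-33936413 on the minus strand and Nelfe at chr17:34850391-34856372 on the plus strand.

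Hexim1 was the gene of the set that differed most after 6 h of Pol II depletion. It had counts of 517 and 534 in the untreated libraries, 1153 and 1106 in the auxin-treated ones and 840 and 883 in wild-type. All 3 groups stood apart, with untreated lowest and auxin-treated highest. After scaling by the trimmed mean of M-values (TMM) over the 6 libraries, its level was 36.2 ± 0.48 CPM (SD, n = 2) in untreated, 71.4 ± 0.83 CPM in auxin-treated and 61.0 ± 1.8 CPM in wild-type cells. The log2 fold change was 1.00 (SE 0.08) after auxin and 0.72 (SE 0.07) in wild-type against untreated. Both comparisons share the untreated libraries.

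Among the 10999 genes whose mean count in the degron libraries reached 100, 26 had a log2 fold change of at least 1 in either direction after auxin. Counted from the highest log2 fold change, Hexim1 ranked 23. In wild-type it ranked 1139 of 10842.

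Hexim2, the close relative of Hexim1 with the same inhibitory role, had the fewest counts of the 9 genes. They were 119 and 109 in untreated, 113 and 114 in auxin-treated and 89 and 97 in wild-type libraries. The raw counts of untreated and auxin-treated cells lay in 1 range, while wild-type was below both. In CPM the levels were 7.85 ± 0.56 in untreated, 7.18 ± 0.17 in auxin-treated and 6.58 ± 0.36 in wild-type cells (SD, n = 2 each). The log2 fold changes were −0.11 (SE 0.17) after auxin and −0.28 (SE 0.17) in wild-type, the widest errors of the 9 genes.

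**Figure D1:**
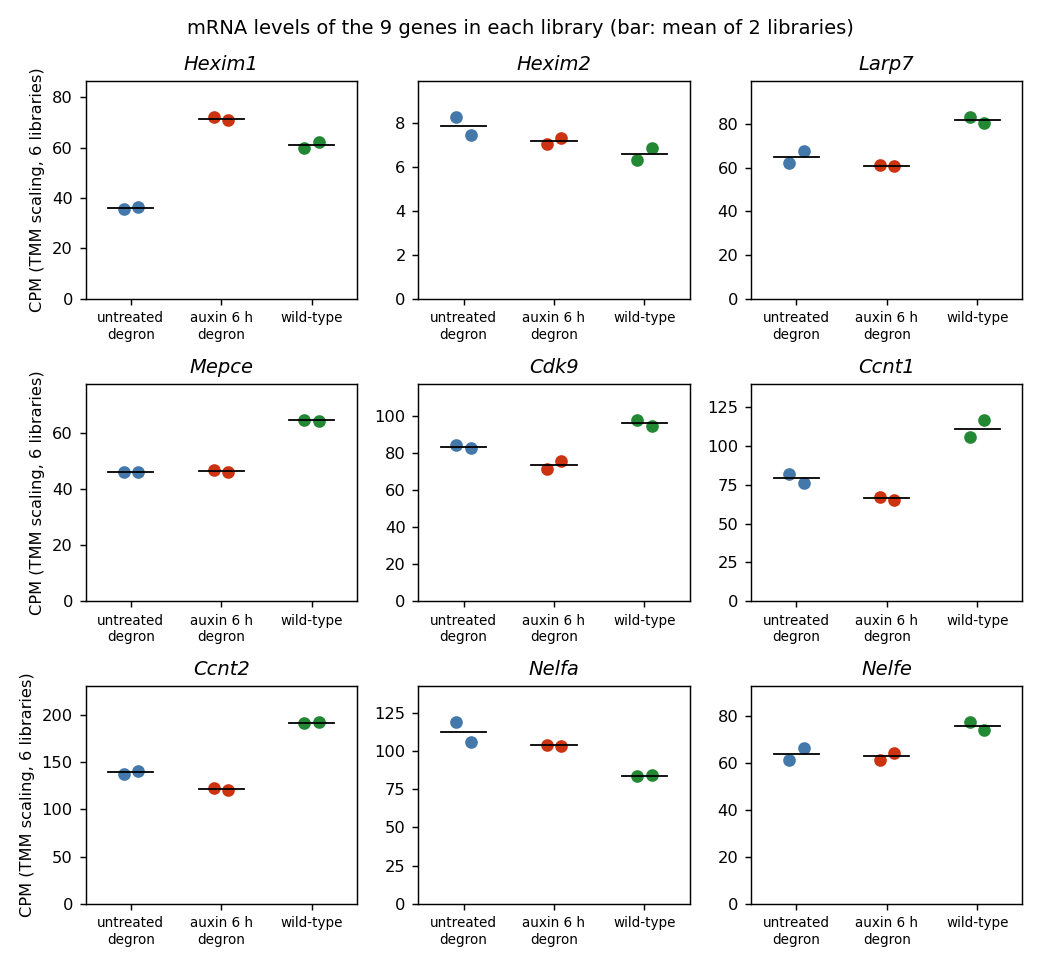
Level of each of the 9 genes in each library, in TMM-scaled CPM (linear axes from 0), by group; points are libraries and bars are means of 2. Hexim1 rises from 35.8 and 36.5 CPM in untreated to 72.0 and 70.8 CPM in auxin-treated libraries, while Nelfe of these groups overlaps.

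Larp7 and Mepce, the constant protein partners of 7SK, showed small differences after auxin and higher levels in wild-type. Larp7 had counts of 896 and 988 in untreated, 980 and 946 in auxin-treated and 1169 and 1141 in wild-type libraries. The raw counts of untreated and auxin-treated cells overlapped and both wild-type counts lay above them; in CPM, at 64.8 ± 3.9 and 60.9 ± 0.44 (SD, n = 2), the untreated cells were the higher of the degron groups. Its log2 fold change was −0.07 (SE 0.07) after auxin and 0.31 (SE 0.07) in wild-type. Of the 100-base stretches of Larp7 transcripts, 6.48% are shared with the gene Gm12666, so reads there could be assigned to either, and its introns hold the Mir302 and Mir367 genes on the opposite strand.

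Mepce had counts of 667 and 676 in untreated, 752 and 722 in auxin-treated and 913 and 917 in wild-type libraries. After scaling, the untreated and auxin-treated cells were at 46.2 and 46.6 CPM, while wild-type was at 64.8 CPM. The log2 fold change was 0.03 (SE 0.08) after auxin, a sign that turned to −0.14 when the libraries were scaled to mitochondrial mRNAs, and 0.46 (SE 0.07) in wild-type.

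The kinase and its cyclins had lower CPM in both auxin-treated libraries than in either untreated one, a lack of overlap that 50.8% of all genes tested also showed. None of these 3 genes was called after auxin in the fit over all genes, which called 4.20% of 16128 genes. Cdk9 had counts of 1213 and 1208 in untreated, 1144 and 1184 in auxin-treated and 1377 and 1343 in wild-type libraries. On the CPM scale it was at 83.3 ± 1.0 in untreated, 73.6 ± 3.1 in auxin-treated and 96.3 ± 2.3 in wild-type cells (SD, n = 2 each), and the groups did not overlap. Its log2 fold change was −0.16 (SE 0.07) after auxin and 0.18 (SE 0.07) in wild-type.

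Ccnt1, which encodes cyclin T1, had counts of 1182 and 1118 in untreated, 1081 and 1019 in auxin-treated and 1486 and 1660 in wild-type libraries. The groups followed the order auxin-treated, untreated, wild-type with no overlap. Its log2 fold changes of −0.24 (SE 0.07) after auxin and 0.46 (SE 0.07) in wild-type pointed in opposite directions. Exons of Ccnt1 overlap the gene 9330020H09Rik on the other strand. How strand was treated when reads were counted is not given in the sources used here, so part of these counts could belong to that gene.

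Ccnt2, which encodes cyclin T2, had the most counts of the 9 genes, with 1988 and 2055 in untreated, 1972 and 1879 in auxin-treated and 2688 and 2729 in wild-type libraries. Its order of groups was that of Ccnt1, again without overlap. The log2 fold change was −0.17 (SE 0.07) after auxin and 0.43 (SE 0.06) in wild-type.

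Nelfa and Nelfe, subunits of the pausing factor NELF, differed little after auxin and moved apart in wild-type. Nelfa had counts of 1713 and 1547 in untreated, 1666 and 1609 in auxin-treated and 1172 and 1192 in wild-type libraries. The wild-type libraries were the lowest, and the untreated libraries lay on both sides of the auxin-treated ones in raw counts. In CPM the untreated level was 112 ± 9.2 (SD, n = 2), and the log2 fold change was −0.10 (SE 0.07) after auxin and −0.45 (SE 0.07) in wild-type. Exons of Nelfa overlap Nsd2 on the opposite strand, with the same limit as for Ccnt1.

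Nelfe, the RNA-binding subunit, had counts of 883 and 969 in untreated, 978 and 1003 in auxin-treated and 1086 and 1047 in wild-type libraries. In CPM it was the single gene of the set whose untreated and auxin-treated libraries overlapped. Its log2 fold change was −0.01 (SE 0.08) after auxin, a sign that turned with the scaling and filter, and 0.22 (SE 0.07) in wild-type.

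**Figure D2:**
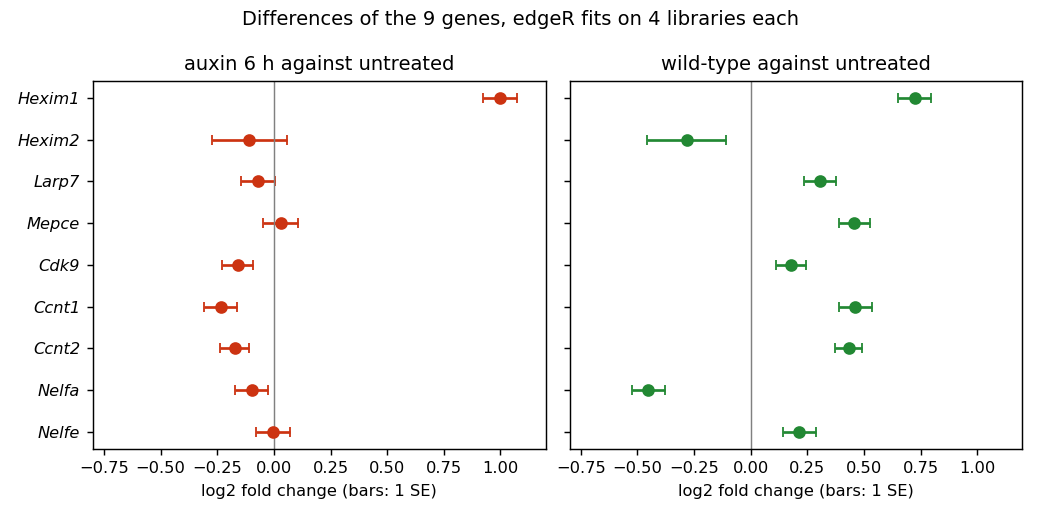
Log2 fold changes of the 9 genes (x axis) after auxin 6 h and in wild-type, each against the untreated libraries, with bars of 1 SE from edgeR fits on 4 libraries. After auxin Hexim1 is at 1.00 and the other 8 lie between −0.24 and 0.03. In wild-type 7 lie above 0 and Nelfa and Hexim2 below with TMM scaling. Scaled to mitochondrial mRNAs all 9 lie below 0, where the median of all genes was −2.10.

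Over all genes, the quasi-likelihood test of edgeR, adjusted by Benjamini and Hochberg's method, called 4.20% of 16128 genes after auxin and 60.6% of 15778 genes in wild-type, at an adjusted p under 0.05. Of the 9 genes, 1 (Hexim1) was called after auxin and 8 in wild-type, all but Hexim2, with 7 higher and Nelfa lower. After auxin the count was 2 with a replicate block or without either untreated library and 3 with all groups in one fit, as Ccnt1, Ccnt2 or both were added. In wild-type it was 6 by DESeq2, with library totals, with no filter or without either wild-type library, as Cdk9 and Nelfe were not called. In CPM, the auxin-treated and untreated libraries did not overlap for 8 of the 9 genes (2 higher and 6 lower), compared with 50.8% of all genes tested, and the wild-type and untreated libraries did not overlap for any of the 9, compared with 81.0%. Nothing is read from these counts, since the genes were chosen with them known. The median log2 fold change of the 9 genes was −0.10 after auxin and 0.31 in wild-type, and that of all genes tested was 0.00 and −0.01. The wild-type directions hold for TMM scaling, which sets the typical gene as unchanged. Log2 fold changes after auxin are likewise relative to the typical gene. Scaled to mitochondrial mRNAs, Hexim1 was at 0.83 after auxin and the median of all genes was −0.17. Whether mRNA amounts changed in general was not tested. When the libraries were scaled to mitochondrial mRNAs, the median of all genes in wild-type was −2.10 and every one of the 9 genes was lower, Hexim1 least at −1.37. This scaling shifts every gene by nearly the same amount, set by the mitochondrial shares given above. The turn of sign is therefore not particular to the 9 genes.

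Ratios within a library do not depend on the scaling. For 1 count of Cdk9 there were 0.426 and 0.442 counts of Hexim1 in untreated, 1.01 and 0.934 in auxin-treated and 0.610 and 0.657 in wild-type libraries. The ratio of Hexim1 to Hexim2 was 4.34 and 4.90 in untreated, 10.2 and 9.70 in auxin-treated and 9.44 and 9.10 in wild-type libraries. In both ratios each auxin-treated library was above each untreated and each wild-type one.

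Between untreated and auxin-treated libraries, the ratios among the other genes varied less. Larp7 to Cdk9 was between 0.739 and 0.857 over all 6 libraries, and its auxin-treated and untreated values overlapped. Mepce to Cdk9 was 0.550 and 0.560 in untreated, 0.657 and 0.610 in auxin-treated and 0.663 and 0.683 in wild-type libraries. Ccnt1 to Ccnt2 stayed between 0.542 and 0.608, with every group overlapping another. The sum of the cyclins to Cdk9 was 2.61 and 2.63 in untreated, 2.67 and 2.45 in auxin-treated and 3.03 and 3.27 in wild-type libraries, so wild-type was above both degron groups. Nelfa to Nelfe was 1.94 and 1.60 in untreated, 1.70 and 1.60 in auxin-treated and 1.08 and 1.14 in wild-type libraries, with wild-type lowest.

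**Figure D3:**
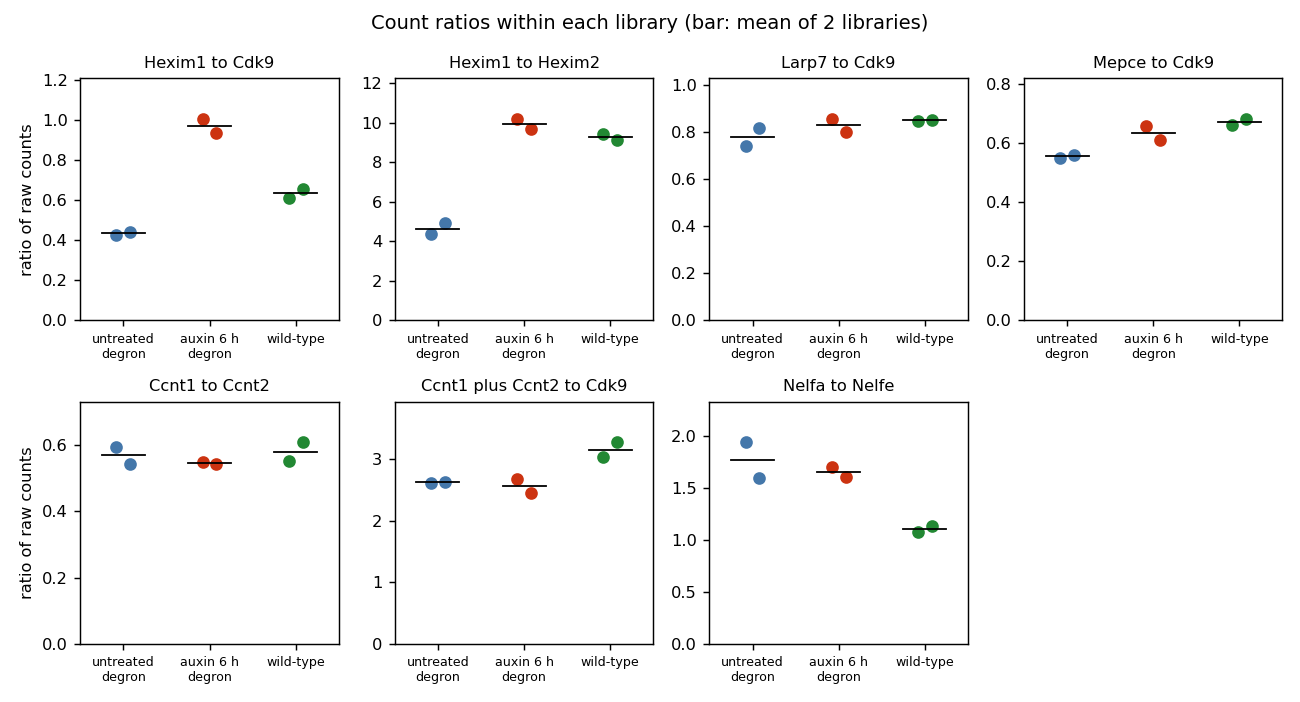
Ratios of raw counts within each library (y axes, linear from 0) for 7 pairs of the genes, by group; points are libraries and bars are means of 2. Hexim1 to Cdk9 goes from 0.434 in untreated to 0.971 in auxin-treated and 0.634 in wild-type cells, while Ccnt1 to Ccnt2 has overlapping groups.

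Levels of different genes were compared per length, in CPM per kilobase of annotated exon. In untreated cells Nelfe (30.7), Nelfa (28.4) and Larp7 (27.4) were highest, and the libraries of neighbours in this order overlapped. Cdk9 followed at 18.1, Mepce at 13.01, Ccnt2 at 11.3, Hexim1 at 10.3, Ccnt1 at 8.65 and Hexim2 at 3.31, with no overlap between neighbours from Cdk9 down. After auxin Hexim1 stood at 20.4 CPM per kilobase, with Cdk9 at 16.0 and Mepce at 13.1. In wild-type Hexim1 was at 17.4, below Cdk9 at 20.9 and Mepce at 18.2 on either length. Hexim2 was the lowest of the 9 in every group with either length, at 3.03 after auxin and 2.77 in wild-type. Much of this order depends on the gene model. With the length of the longest transcript in place of all exons, Hexim1 and Cdk9 overlapped after auxin, at 20.4 and 20.7 CPM per kilobase. In untreated cells Nelfa (43.5) was then above Nelfe (39.6), Ccnt2 (18.2) above Mepce (14.8) and Ccnt1 (10.7) above Hexim1 (10.3), and the libraries of the first and the last of these pairs overlapped.

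The other genes of the pathway were described through 6 lists of 65 genes, set by function: the remaining NELF and DSIF subunits, the super elongation complex, 7SK with its other partners and factors that recruit or release P-TEFb, the PAF complex and other elongation factors, other CTD kinases and phosphatases, and Integrator, which cleaves transcripts of paused Pol II. After auxin none of the 65 genes was called by edgeR, compared with 4.20% of all genes tested, and none by DESeq2. The edgeR count was 4 with a replicate block and 1 with all groups in one fit. At an unadjusted p under 0.05 by edgeR there were 11 of 65 genes (16.9%), compared with 20.1% of all genes tested. Their median log2 fold change was −0.05, with 44 below 0 and 21 above. At the ends were Cdk12, a CTD kinase of elongating Pol II, at −0.26 (SE 0.07, adjusted p = 0.0708 from edgeR) and Rn7sk, the 7SK RNA, at 0.92 (SE 0.33, adjusted p = 0.130), both named after their values were seen.

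The 7SK RNA is made by Pol III and has no poly(A) tail, so these libraries sample it poorly. Rn7sk had 29 and 15 counts in untreated, 42 and 48 in auxin-treated and 6 and 4 in wild-type libraries. The 3 groups stood apart with wild-type lowest, and edgeR called it lower in wild-type (log2 fold change −2.10, adjusted p = 0.00409). The share of RNA without a tail in each library was not measured.

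In wild-type against untreated, 42 of the 65 genes were called (64.6%, beside 60.6% of all genes). With TMM scaling 33 were higher and 9 lower, and of all 15778 genes tested 4713 were called higher and 4842 lower. Scaled to mitochondrial mRNAs, all 65 were lower, and the median log2 fold change of all genes was −2.10. The median log2 fold change with TMM scaling was 0.19. For the values that follow, all from that TMM fit, the adjusted p of edgeR was at most 0.0071, and each gene given as higher was lower than untreated with the mitochondrial scaling.

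Of the 4 remaining NELF and DSIF subunits, Nelfb was higher (log2 fold change 0.39) and Supt5, the large DSIF subunit, was lower (−0.21). NELF subunits therefore did not share a direction, with Nelfb and Nelfe higher and Nelfa lower on that scale. Exons of Supt5 overlap Gm44709 on the opposite strand. Of the list genes named below, Ell2, Srsf2, Supt16, Wdr61, Cdc73, Ssu72, Ctdspl, Ints13 and Ints2 also have exons that overlap genes on the opposite strand. The limit given for Ccnt1 applies to each of them. On the same strand, exons of Ints5 overlap Gm49416, and those of Ell2, Brd3 and Ppp1r10 overlap Gm23127, Mir7578 and Mir1894. Reads there could be assigned to either gene.

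Of the 10 super elongation complex genes, which bring P-TEFb to Pol II, 3 were higher and 4 lower. Ell2, an elongation factor, was at 0.62 and Mllt3, a reader of acylated histones, at 0.97. Aff4, a scaffold of the complex, was at −0.71, its relative Aff1 at −0.44 and Ell at −0.45. Aff4 had counts of 8002 and 7434 in untreated, 8405 and 7933 in auxin-treated and 4604 and 4768 in wild-type libraries, with wild-type below both degron groups.

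Of the 13 genes of 7SK and of P-TEFb recruitment or release, 8 were higher and Rn7sk was lower. Hnrnpa1, an RNA-binding protein that holds 7SK when P-TEFb has left it, was at 1.36. Its counts were 11022 and 12024 in untreated, 12548 and 12279 in auxin-treated and 29086 and 29528 in wild-type libraries, so wild-type stood apart from both degron groups. Brd3 was at 0.67, Hnrnpa2b1 at 0.55, Ppm1g, a phosphatase that frees P-TEFb, at 0.53, and the splicing factor Srsf2 at 0.50.

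Of 11 PAF complex and other elongation factor genes, 7 were higher and 1 lower. They included the histone chaperone subunit Supt16 at 0.70 and the PAF complex genes Rtf1 at 0.56, Wdr61 at 0.47, Leo1 at 0.38 and Cdc73 at 0.37. Of 13 genes of other CTD kinases and phosphatases, 5 were higher and 2 lower. Ppp1r10, a targeting subunit of protein phosphatase 1, was at 1.73, with counts of 520 and 475 in untreated, 615 and 670 in auxin-treated and 1678 and 1602 in wild-type libraries. Cdk12 was at 0.46, Ctdspl at 0.80, Cdk7 at 0.32 and the CTD phosphatase Ssu72 at −0.59. Of 14 Integrator genes 9 were higher and none lower, a called share of 64.3% beside 60.6% of all genes. Among them were Ints7 at 0.80, Ints13 at 0.53, Ints5 at 0.41, Ints3 at 0.32 and Ints2 at 0.30.

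**Figure D4:**
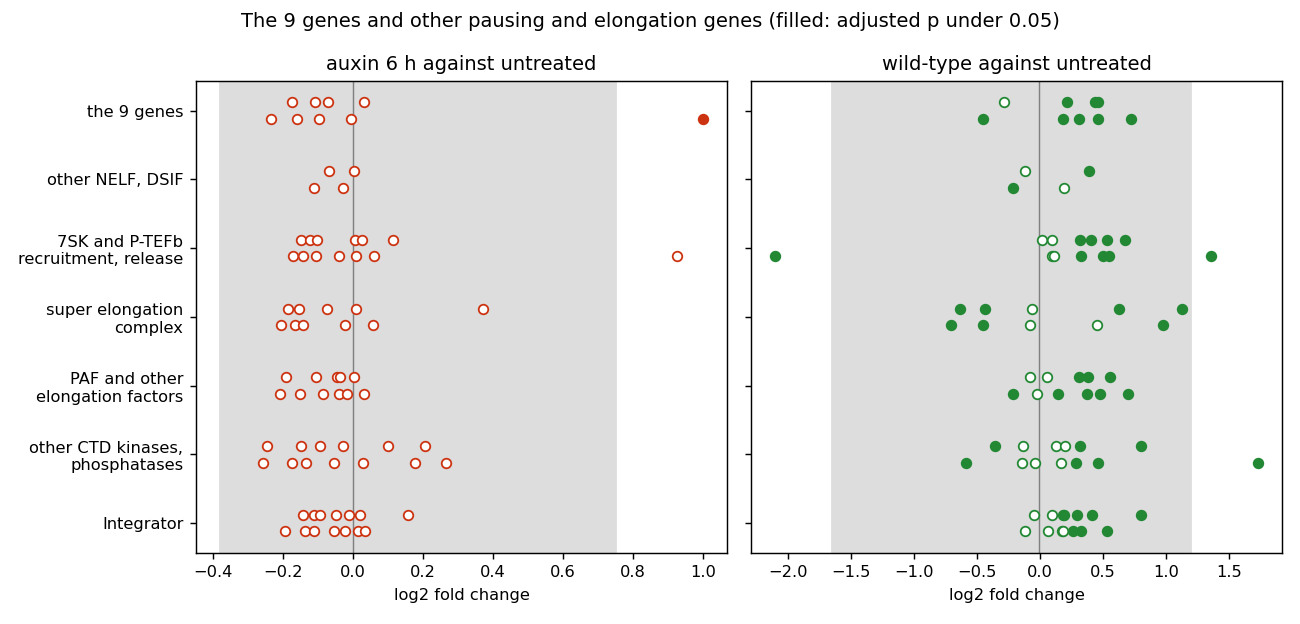
Log2 fold changes (x axis) of the 9 genes and of 65 other pausing and elongation genes by list (rows), from edgeR fits with TMM scaling; filled points have an adjusted p under 0.05 and the grey band holds all tested genes from quantile 0.05 to quantile 0.95. After auxin Hexim1 at 1.00 is the filled point and Rn7sk at 0.92 is open. In wild-type 33 list genes are filled above 0 and 9 below. With mitochondrial scaling all 65 lie below 0, where the median of all genes was −2.10.

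The genes whose profile over the 6 libraries was most like that of Hexim1 were Tob1, 1810043G02Rik, Zfp747, Elavl3 and Ttn, out of 10969 genes whose mean count reached 100. Likeness was the Euclidean distance between log2(CPM + 1) values centred on each gene's mean, and it was 0.309 for Tob1, 0.310 for 1810043G02Rik, 0.341 for Zfp747, 0.381 for Elavl3 and 0.404 for Ttn. Tob1, which encodes an antiproliferative factor that acts in mRNA deadenylation, had counts of 358 and 347 in untreated, 732 and 656 in auxin-treated and 644 and 655 in wild-type libraries. Like Hexim1, it was lowest in the untreated cells, while its wild-type mean was above its auxin-treated one after scaling. None of the other 8 genes of the set was near: their distances were between 0.984 for Mepce and 1.30 for Nelfa, at ranks between 1661 and 7724.

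The genes around Hexim1 were described in the same fits. Within 100000 bases of Hexim1, 8 other genes were tested. After auxin 0 of them were called by edgeR, beside 4.20% of all genes tested, and 0 by DESeq2. An unadjusted p under 0.05 by edgeR was found for 0 of them, beside 20.1% of all genes. Their log2 fold changes after auxin were between −0.57 and 0.04. In wild-type 4 were called by edgeR, beside 60.6% of all genes, and 3 by DESeq2, with the 8 edgeR values between −1.11 and 0.31. Nothing is read from counts over so few genes. The upstream neighbour Acbd4, an acyl-CoA-binding protein gene that ends before the Hexim1 start and was named after its values were seen, was at −0.03 (SE 0.10) after auxin and −1.11 (SE 0.10) in wild-type.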

How the data were processed

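The authors made polyA libraries, sequenced 150-base read pairs, aligned them to mm10 with hisat2 2.1.0 and counted them per GENCODE gene with salmon and htseq-count. The GENCODE release and strand setting are not given in the sources used here. The deposited values used here are raw counts for 39017 genes. Columns of fold changes, p-values and means by the authors were not used, nor were 2 columns of per-sample values that match no sample. Genes were filtered by filterByExpr (minimum count 10), scaled by TMM and compared by edgeR 4.0.16 quasi-likelihood tests (R 4.3.3), each comparison on its own 4 libraries, with Benjamini-Hochberg adjustment. The procedure was tested on simulated data. Levels are CPM with TMM over 6 libraries. Of the gene IDs, 37607 were in GENCODE vM21. The 9 genes and the lists were chosen with earlier results of these data known. Named genes are the 9 genes, Polr2a, per list up to 5 called genes of smallest p, and the 5 profiles nearest to Hexim1; the text says where others were added. With 2 libraries against 2 an exact permutation p cannot go below 0.333, so none was used. Replicates differed by more than counting noise, with a chi-square per gene of 5.72 in untreated, 2.31 in auxin-treated and 2.59 in wild-type libraries. The untreated pair, shared by both comparisons, thus differed most. Alternatives were DESeq2 1.42.0, its size factors, library totals, scaling to 13 mitochondrial mRNAs, other filters, robust dispersion, a replicate block, 1 fit of all groups, and each library left out.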

Additional observations from a re-analysis of the deposited data

How the results depend on the processing

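The log2 fold change of Hexim1 after auxin was between 0.83 and 1.02 over the main analysis and 13 alternatives. Of the 9 genes, 1 was called after auxin in the main analysis, 2 with the replicate block (Ccnt1 added, at −0.23), 3 with all 3 groups in one fit (Ccnt1 at −0.25 and Ccnt2 at −0.19 added) and between 1 and 2 with a library left out: Ccnt2 was added without untreated replicate 1 and Ccnt1 without untreated replicate 2. Of the 65 pathway genes, 0 were called after auxin in the main analysis, 4 with the replicate block, 1 with all groups in one fit and between 0 and 11 with a library left out, with 11 without untreated replicate 1. Of all genes, 677 were called after auxin, 290 by DESeq2 (176 higher), 219 with mitochondrial scaling (167 higher), 55 with no filter (43 higher), 432 with at least 10 counts in every library (246 higher), 1930 with the replicate block (1081 higher), 1235 with all groups in one fit (567 higher), and with a library left out between 179, without auxin replicate 2, and 2724, without untreated replicate 1; the values without untreated replicate 2 and auxin replicate 1 were 1114 and 184. A fit with a library left out takes the lone library of that group to vary like those of the other group. The cause of these shifts was not tested. Replicate numbers are shared between groups, but they mark no common culture and the correlation of replicate differences was 0.113 between untreated and auxin-treated and −0.059 between untreated and wild-type, so they were not taken as pairs; in wild-type the block gave 8 of the 9 and 41 of the 65 genes. After auxin the sign of Mepce turned with mitochondrial scaling (−0.14), and that of Nelfe with library totals (0.0105) and at least 10 counts in every library (0.0017), while with a library left out it was between −0.0663 and 0.048.

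In wild-type, with a library left out, between 6 and 8 of the 9 genes, 33 and 46 of the 65 and 7532 and 9570 of all genes were called; Cdk9 and Nelfe were not called by DESeq2, with library totals, with no filter or without either wild-type library. Mitochondrial scaling moved the median of all genes by −0.17 after auxin and −2.10 in wild-type. In wild-type it called 65 of the 65 and 15308 of all genes (15235 lower), beside 9555 of all genes in the main analysis. The shift is nearly the same for every gene, so turned signs say nothing about single genes. On that scale the values that turned were Hexim1 −1.37, Larp7 −1.79, Mepce −1.64, Cdk9 −1.92, Ccnt1 −1.64, Ccnt2 −1.66, Nelfe −1.88, Polr2a −2.00, Nelfb −1.71, Ell2 −1.47, Mllt3 −1.12, Hnrnpa1 −0.73, Brd3 −1.42, Hnrnpa2b1 −1.55, Ppm1g −1.56, Srsf2 −1.60, Supt16 −1.39, Rtf1 −1.54, Wdr61 −1.62, Cdc73 −1.73, Leo1 −1.72, Ppp1r10 −0.37, Cdk12 −1.64, Ctdspl −1.30, Cdk7 −1.79, Ints7 −1.29, Ints13 −1.56, Ints5 −1.69, Ints3 −1.78 and Ints2 −1.79.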

Other observations

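Hexim1 has no intron. After its values had been seen, genes were counted by the number of exons of their longest annotated transcript. A class set in this way also holds genes with introns in other transcripts, such as Ints13. Among protein-coding genes whose longest transcript has 1 exon, 38 of 798 tested (4.76%) were called higher after auxin by edgeR with Benjamini-Hochberg adjustment, and among those with 2 or more exons 281 of 13436 (2.09%). With a mean of at least 100 counts these were 26 of 516 (5.04%) and 120 of 10068 (1.19%). Called lower were 10 of the 516 and 233 of the 10068. In wild-type against untreated, with TMM scaling, the same classes had 186 of 503 (37.0%) and 3544 of 9934 (35.7%) called higher. The difference between the classes was not tested, and their genes differ in more than the number of exons.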
